A study of Mus musculus with 9 samples.

Results

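The genes described here are the G1 cyclins, their kinases and the inhibitors of those kinases. They were taken as all probe sets annotated to Ccnd1, Ccnd2, Ccnd3, Ccne1, Ccne2, Cdk4, Cdk6, Cdkn1a, Cdkn1b or Cdkn2c, which gave 27 probe sets of 10 genes, of 45037 probe sets tested and 18193 genes named in the series. All arrays came from Neuro2a, a cultured mouse neuroblastoma line, 48 h after one of 3 siRNA treatments. The groups were siControl, the control siRNA, siMyT1, directed at the zinc finger transcription factor gene Myt1, and siLSD1, directed at Kdm1a, which encodes the histone demethylase LSD1. Each group held 3 arrays, and all cells were of the same line and, per the labels, differed by siRNA only. The labels do not name separate cultures for the replicates, so the spread behind the p-values may be technical.

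The G1 cyclins bind kinase partners and drive cells from G1 into S phase. D cyclins act with Cdk4 and Cdk6, which are the first to phosphorylate the retinoblastoma protein, and E cyclins act with Cdk2 once E2F factors are released. Cdkn2c belongs to the INK4 inhibitors, which bind Cdk4 and Cdk6, while Cdkn1a and Cdkn1b belong to the CIP/KIP inhibitors, which bind cyclin and kinase complexes more widely. In neuroblasts this balance is known to set whether a cell divides again or leaves the cycle.

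Promoter sequence is shown for 4 genes whose transcripts fell, rose or were not called after siLSD1, to set it beside those levels. Each stretch is the 250 bases before the annotated start, 5′ to 3′ on the gene's own strand, from RefSeq on the GRCm38.p6 build. Capitals mark the E-box CACGTG, bound by Myc family factors, and the GC box GGGCGG, bound by Sp factors, on either strand.
Ccne1 promoter (chr7:38107491-38107740, minus strand): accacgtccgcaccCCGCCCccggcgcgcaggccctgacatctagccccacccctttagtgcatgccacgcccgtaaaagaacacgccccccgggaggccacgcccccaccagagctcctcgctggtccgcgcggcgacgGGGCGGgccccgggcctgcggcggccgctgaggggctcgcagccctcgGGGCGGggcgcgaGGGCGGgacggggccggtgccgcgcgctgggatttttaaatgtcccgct
Cdkn2c promoter (chr4:109666757-109667006, minus strand): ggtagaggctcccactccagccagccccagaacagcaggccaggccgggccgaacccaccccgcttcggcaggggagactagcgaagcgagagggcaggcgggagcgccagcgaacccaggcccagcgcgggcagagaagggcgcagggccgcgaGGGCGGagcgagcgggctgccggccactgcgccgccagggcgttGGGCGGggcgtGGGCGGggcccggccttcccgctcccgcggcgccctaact
Ccnd3 promoter (chr17:47593217-47593466, plus strand): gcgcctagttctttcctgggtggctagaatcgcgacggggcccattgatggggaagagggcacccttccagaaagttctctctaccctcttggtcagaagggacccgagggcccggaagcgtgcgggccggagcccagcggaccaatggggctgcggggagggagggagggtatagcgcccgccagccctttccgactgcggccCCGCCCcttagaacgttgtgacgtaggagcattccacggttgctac
Cdk4 promoter (chr10:127063285-127063534, plus strand): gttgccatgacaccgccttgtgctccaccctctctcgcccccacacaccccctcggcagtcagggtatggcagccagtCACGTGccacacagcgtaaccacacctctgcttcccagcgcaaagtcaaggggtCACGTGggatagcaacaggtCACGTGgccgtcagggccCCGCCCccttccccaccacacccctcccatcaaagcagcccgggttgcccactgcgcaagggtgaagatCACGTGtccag

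The RefSeq table held such windows for 7 of the 10 genes, 10 windows in all. For Ccnd1, Ccnd2 and Ccne2 no window was used. The Ccne1 window held 4 GC boxes, the Cdkn2c window shown held 3, and the Ccnd3 and Cdk4 windows shown held 1 each. Another Ccnd3 window, farther upstream and not shown, held 2. GC boxes were found in 32.7% of all 32851 windows. Cdk4 carried 4 E-boxes, at 172, 118, 98 and 11 bases before the start. An E-box was present in 6.02% of all windows, and 4 or more were present in 7 windows, or 0.0213%. Among the other genes, Cdk6 had 1 E-box, at 220 bases before its start. The E2F forms TTTCCCGC, TTTCGCGC, TTTGCCGC and TTTGGCGC were searched on both strands as well, with overlaps between motifs allowed. At least 1 of them occurred in 1.86% of all windows and in none of the 10. A match of letters is a description of the window and not evidence of binding.

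The siRNAs lowered their own targets. Myt1 (probe set 1422773_at) measured 4.90 ± 0.34 deposited units in siControl and 0.661 ± 0.21 in siMyT1 (SD, n = 3), 13.5% of control. The siLSD1 arrays read Myt1 at 6.95 ± 0.72, which was not called (log2 difference 0.49, adjusted p = 0.0956). Kdm1a (1426762_s_at) measured 29.0 ± 1.0 in siControl and 4.49 ± 0.40 in siLSD1, 15.5% of control. Its other probe set (1426761_at) stood at 7.59% of control after siLSD1. The other Myt1 probe set (1439365_at) was too dim to show a fall, at means of 0.0605 units in siControl and 0.0735 in siMyT1, and was not called. Array medians lay between 0.301 and 0.424 units. Log2 values correlated at 0.989 to 0.993 within groups and at 0.984 to 0.991 between groups, so the ranges overlapped. Of the markers of sympathetic neuroblastoma cells, 11 of 12 were measured and all 11 lay above the array median on every array, with summed levels of 248 to 265 units in siControl, 196 to 208 in siMyT1 and 270 to 300 in siLSD1. Bright probe sets weigh most in these sums. Against them, Hand2 (51.7 to 39.8 units) and Dbh (1.215 to 0.958) were lower after siLSD1 and Gata3 (3.465 to 4.516) higher after siMyT1, while the rest of the list moved with the sums. By limma, 9 of the 11 had an unadjusted p under 0.05 after siMyT1 and 8 after siLSD1, beside 20.3% and 21% of all genes. The summed levels of 7 fibroblast markers were 3.90 to 5.28 units in siControl, 5.05 to 5.59 in siMyT1 and 3.98 to 4.02 in siLSD1. Those of 6 macrophage markers reached 1.89, of 4 of 6 glial markers 1.97, of 5 endothelial markers 2.55 and of 5 epithelial markers 2.67 units at most. By group mean, the brighter members of these lists included Pdgfrb (2.40 to 2.93 units), Csf1r (0.849 to 0.885), Sox10 (0.388 to 0.609), Tek (0.313 to 0.868) and Epcam (1.15 to 1.23), and among the lowest were Ptprc (up to 0.0801) and Tie1 (up to 0.0179). Dcn, a fibroblast marker, read 0.777 units in siControl, 1.29 in siMyT1 and 0.648 in siLSD1, and Pecam1, an endothelial marker, 0.287, 0.578 and 0.380. Other fibroblast markers moved less, such as Col1a1 (0.145, 0.157 and 0.124) and Lum (0.132, 0.129 and 0.149). After siMyT1, 1 of the 7 fibroblast and 2 of the 5 endothelial markers had an unadjusted limma p under 0.05, beside 20.3% of all genes. In the endothelial list, siMyT1 arrays summed to 1.57 to 2.55 units against 0.803 to 1.66 in siControl. The ratio of actin 3′ to 5′ control probe sets, a sign of RNA quality, was 1.15 to 1.19 in siControl, 1.11 to 1.12 in siMyT1 and 1.12 to 1.23 in siLSD1. The part of these marker levels and ratios in the results below was not tested.

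After siLSD1, 5 of the 10 genes passed the test, with Ccnd1 and Ccnd3 higher and Ccne1, Ccne2 and Cdkn2c lower. Each gene was read here by its brightest probe set, and the test was limma with Benjamini-Hochberg adjustment over all probe sets at a threshold of 0.05. In the same comparison 7.21% of all genes were called, 3.26% higher and 3.95% lower. That share takes in dim genes. With dim probe sets left out of the fit, 1435 of 22518 probe sets were called higher and 2024 lower. After siMyT1, 0 of the 10 were called by limma, beside 5.13% of all genes, 3.57% higher and 1.56% lower. Of the 22518 brighter probe sets fitted alone, 1595 were higher and 823 lower. At an unadjusted p under 0.05 the siMyT1 count was 4 of 10, where 20.3% of all genes met that limit. Between siMyT1 and siLSD1, 4 of the 10 differed, Ccne1, Ccne2 and Cdkn2c being higher in siMyT1 and Ccnd1 lower. Of all genes 16.1% differed there, 11.3% higher in siMyT1 and 4.77% lower. Of the 22518 brighter probe sets fitted alone, 4455 were higher and 2063 lower. An F-test over the 3 groups called 6 of the 10 genes and 16.1% of all genes, with Cdkn1b beside the 5 called after siLSD1. Counted by probe set, 9 of 27 were called after siLSD1 (5.05% of all probe sets), 0 after siMyT1 (3.24%) and 8 between the knockdowns (11.2%). After siMyT1, 5 of the 27 had an unadjusted p under 0.05. The share of all probe sets under that limit was not counted, and that of all genes was the 20.3% given above. The median log2 difference of the 10 genes from siControl was -0.10 after siLSD1 and -0.01 after siMyT1, and that of all genes was -0.03 and 0.05. Both knockdowns were set against the same siControl arrays.

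**Figure D1:**
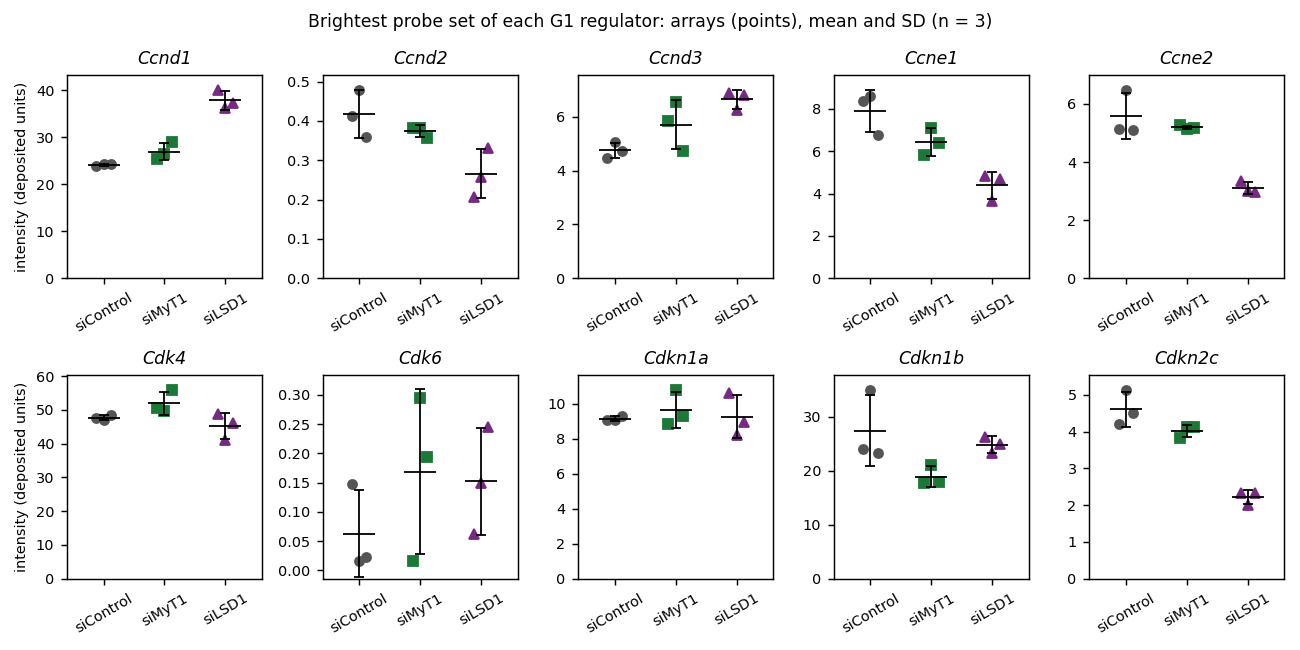
Intensity in deposited units (vertical axes, linear, a scale of its own for each gene) of the brightest probe set of the 10 genes by group. Points are arrays, the long bar is the mean and the whiskers are 1 SD (n = 3). The siLSD1 arrays of Ccnd1 lie at 36.3 to 40.1, above all others, and those of Cdkn2c at 1.99 to 2.34, below all others.

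Among the D cyclins, Ccnd1 was the gene with the clearest rise. It encodes cyclin D1, the D cyclin that growth signals induce in many cells. Its brightest probe set (1448698_at) read 24.0, 24.3 and 24.3 units on the siControl arrays, 25.4, 26.5 and 28.9 on the siMyT1 arrays and 40.1, 36.3 and 37.3 on the siLSD1 arrays. The siLSD1 arrays were all above the siMyT1 arrays, and these were all above siControl. The siLSD1 level was 156.7% of control, a log2 difference of 0.64 (SE 0.06, adjusted p = 0.000119, limma). The siMyT1 level was 111.5% of control and was not called (log2 difference 0.15, adjusted p = 0.284). Between the knockdowns siMyT1 was lower than siLSD1 by a log2 difference of -0.49 (adjusted p = 0.000477).

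The other Ccnd1 probe sets moved the same way after siLSD1. Probe set 1417420_at went from 24.3 ± 1.7 to 35.6 ± 1.1 units (SD, n = 3), 146.6% of control, with a log2 difference of 0.55 (adjusted p = 0.000375). It read 24.4 ± 1.0 after siMyT1, within the siControl range of 22.8 to 26.1. Probe set 1417419_at went from 14.1 ± 2.1 to 18.7 ± 1.4 units, 132.9% of control (adjusted p = 0.031). The call of this probe set was lost without siControl replicate 1 (adjusted p = 0.139) or 3 (0.112) and without siLSD1 replicate 1 (0.113) or 3 (0.0871). It was also lost with no intensity trend (0.121) and with only the compared groups fitted (0.0633). Its call between the knockdowns (adjusted p = 0.0408) was lost on leaving out any 1 siMyT1 or siLSD1 array, with adjusted p between 0.0548 and 0.137, and with no intensity trend (0.124).

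Ccnd3, which encodes cyclin D3, was also called higher after siLSD1, but its probe sets disagreed. The brightest (1415907_at) read 4.48, 5.04 and 4.73 units in siControl, 5.85, 6.54 and 4.72 in siMyT1 and 6.90, 6.24 and 6.81 in siLSD1. All siLSD1 arrays were above siControl, while the siMyT1 arrays overlapped both groups. That was 140% of control after siLSD1, a log2 difference of 0.47 (SE 0.10, adjusted p = 0.0222). This call was lost without siControl replicate 1 (adjusted p = 0.103) or 3 (0.0632) and without siLSD1 replicate 1 (0.0792) or 3 (0.0915), and with no intensity trend (0.0852). It was kept in 11 of 17 alternatives.

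A much dimmer Ccnd3 probe set (1444323_at) went the other way. It read 0.398, 0.396 and 0.405 units in siControl, 0.475, 0.435 and 0.420 in siMyT1 and 0.217, 0.145 and 0.123 in siLSD1. The siLSD1 arrays were all below the rest, at 40.4% of control (log2 difference -0.75, adjusted p = 0.032). The call was lost without any 1 siControl array (adjusted p 0.0839 to 0.107) and without siLSD1 replicate 2 (0.104) or 3 (0.147). Between the knockdowns this probe set was higher in siMyT1 (log2 difference 0.85, adjusted p = 0.00915), a call kept in 14 of 15 alternatives. The brightest Ccnd3 probe set differed there by -0.23 (adjusted p = 0.222) and was not called. The dimmer probe set lay above its array's median on 6 of 9 arrays. With the Ccnd3 probe sets averaged, the siLSD1 difference was -0.046 (adjusted p = 0.92). The remaining Ccnd3 probe set (1438805_at) lay between 0.0993 and 0.370 units and was not called.

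Ccnd2, the gene of cyclin D2, was dim on these arrays, with its brightest probe set close to the array median. Its brightest probe set (1416122_at) read 0.413, 0.479 and 0.359 units in siControl, 0.383, 0.383 and 0.357 in siMyT1 and 0.207, 0.257 and 0.331 in siLSD1. The siLSD1 arrays were below siControl on all 3, and the difference was not called (log2 difference -0.41, adjusted p = 0.287). This probe set lay above the array median on 6 of 9 arrays and the other 6 probe sets of the gene on 0 of 9. None of the 7 Ccnd2 probe sets was called in any comparison.

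Both E cyclin genes fell after siLSD1. Ccne1 and Ccne2 encode cyclins E1 and E2, which activate Cdk2 at the G1/S border and are themselves E2F targets. The brightest Ccne1 probe set (1441910_x_at) read 8.35, 8.61 and 6.78 units in siControl, 5.81, 7.09 and 6.40 in siMyT1 and 4.84, 3.67 and 4.68 in siLSD1. The siLSD1 arrays were below all others, and the siMyT1 arrays overlapped siControl at their upper end. After siLSD1 the level was 55.6% of control, a log2 difference of -0.82 (SE 0.12, adjusted p = 0.00158). After siMyT1 the level was 81.3% of control and not called (log2 difference -0.29, adjusted p = 0.273).

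The other Ccne1 probe set (1416492_at) gave the same picture with less spread. It read 4.50, 4.45 and 4.01 units in siControl, 3.21, 3.80 and 3.84 in siMyT1 and 2.35, 2.39 and 2.37 in siLSD1. The 3 groups did not overlap. It stood at 54.9% of control after siLSD1 (log2 difference -0.81, adjusted p = 0.000236). The siMyT1 difference of -0.25 was not called (adjusted p = 0.197). Both Ccne1 probe sets passed after siMyT1 with quantile normalization (adjusted p = 0.0459 and 0.0189) and in no other alternative. Between the knockdowns both were higher in siMyT1, by log2 differences of 0.54 (adjusted p = 0.0123) and 0.57 (adjusted p = 0.00158). The first of these was not called without siMyT1 replicate 2 (adjusted p = 0.065).

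Ccne2, with 1 probe set (1422535_at), read 5.12, 6.49 and 5.12 units in siControl, 5.26, 5.14 and 5.18 in siMyT1 and 3.34, 2.99 and 2.96 in siLSD1. The siMyT1 arrays lay within the siControl range and the siLSD1 arrays below it. The siLSD1 level was 55.5% of control, a log2 difference of -0.80 (SE 0.10, adjusted p = 0.000396). After siMyT1 it was 93.1% of control (log2 difference -0.09, adjusted p = 0.751). Ccne2 was higher in siMyT1 than in siLSD1 by 0.71 (adjusted p = 0.000551).

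The kinase genes of the D cyclins were not called in any comparison. The brightest Cdk4 probe set (1422441_x_at) read 47.7, 47.1 and 48.4 units in siControl, 50.5, 49.6 and 55.9 in siMyT1 and 48.6, 41.1 and 46.0 in siLSD1. The siLSD1 arrays overlapped siControl and the siMyT1 arrays lay just above it. The log2 difference was -0.08 after siLSD1 (95% interval -0.24 to 0.08) and 0.12 after siMyT1 (-0.04 to 0.28). The difference between the knockdowns was 0.20 (adjusted p = 0.110), and it was called with quantile normalization (adjusted p = 0.0221) and with dim probe sets left out (0.0389). The other Cdk4 probe sets differed from siControl by -0.05 and -0.04 after siLSD1 and by 0.06 and 0.13 after siMyT1. Cdk4 is the gene whose promoter window above holds the 4 E-boxes. Cdk6, the partner kinase, had 3 probe sets below the array median on all 9 arrays. Its brightest (1455287_at) ranged from 0.0159 to 0.295 units, and its level could not be told from that of dim probe sets.

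**Figure D2:**
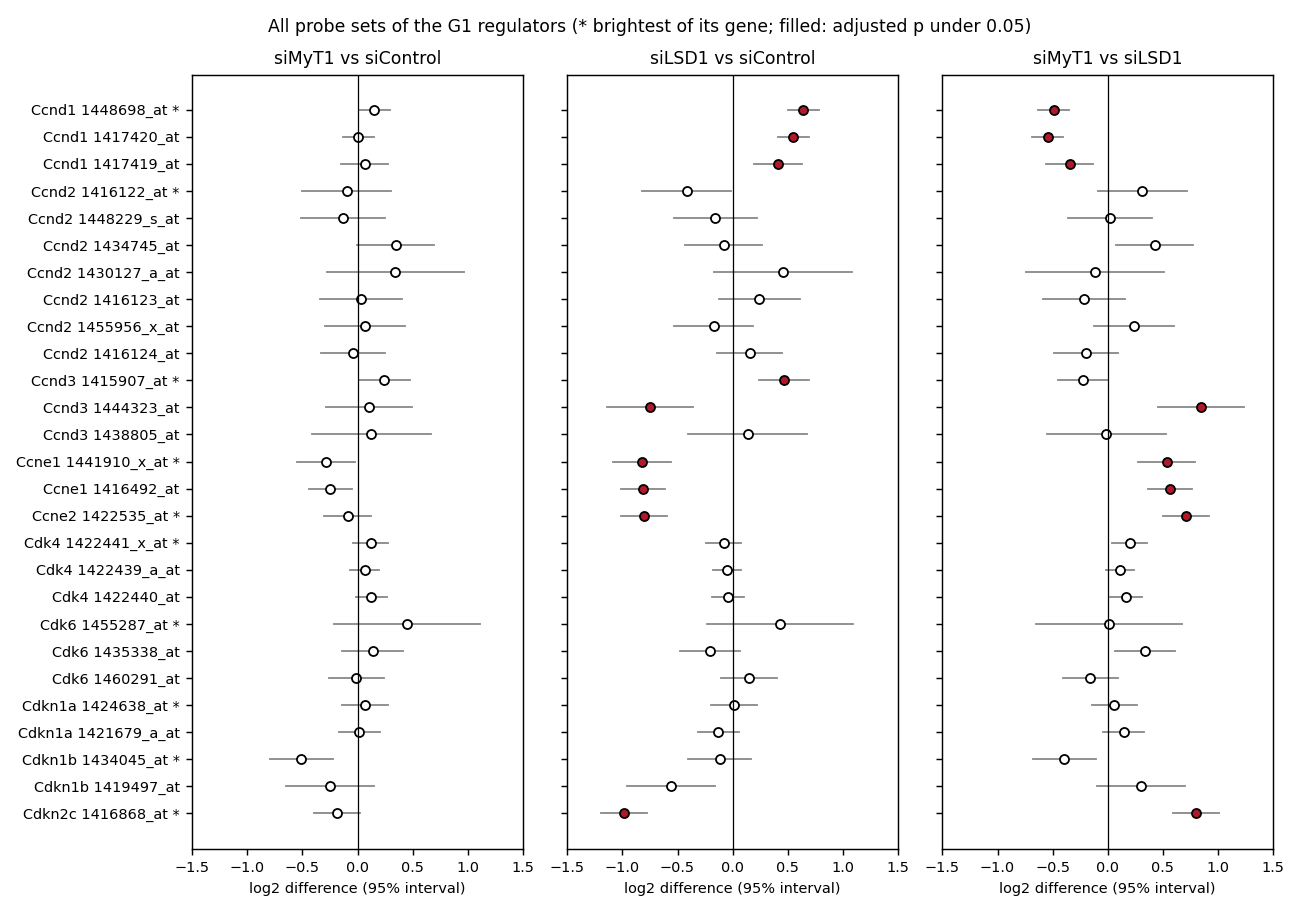
Log2 differences (horizontal axes, with 95% intervals) of all 27 probe sets in the 3 comparisons. Filled points passed the test at an adjusted p under 0.05 and a star marks the brightest probe set of a gene. No point is filled for siMyT1 against siControl, and 9 are for siLSD1 against siControl.

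Of the inhibitors, Cdkn2c fell the furthest after siLSD1. It encodes an INK4 inhibitor expressed in many neural progenitors. Its 1 probe set (1416868_at) read 4.19, 5.13 and 4.49 units in siControl, 3.82, 4.11 and 4.12 in siMyT1 and 2.33, 1.99 and 2.34 in siLSD1. The 3 groups did not overlap. The siLSD1 level was 48.2% of control, a log2 difference of -0.99 (SE 0.10, adjusted p = 8.93e-05). The siMyT1 level was 87.3% of control and not called (log2 difference -0.18, adjusted p = 0.418). Between the knockdowns the difference was 0.81 (adjusted p = 0.000246). The promoter window shown for Cdkn2c is the farther upstream of its 2 windows, and the other held no match to any motif searched.

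Cdkn1b had, by its brightest probe set, the lowest siMyT1 level of the 10 genes relative to control, and it was not called there. It encodes a CIP/KIP inhibitor linked to cell cycle exit. Its brightest probe set (1434045_at) read 24.0, 35.0 and 23.3 units in siControl, 17.7, 21.1 and 17.9 in siMyT1 and 26.3, 23.3 and 25.0 in siLSD1. The siMyT1 arrays were below all others, and siControl replicate 2 stood above the other siControl arrays. The siMyT1 level was 68.9% of control (log2 difference -0.51, SE 0.13, adjusted p = 0.0575). It was called in 7 of 17 alternatives, with adjusted p between 0.00519 and 0.0469 in those. Without siControl replicate 2 the difference was -0.33. The siLSD1 level was 90.6% of control (log2 difference -0.12, adjusted p = 0.763). The F-test over the 3 groups gave an adjusted p of 0.0485.

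The second Cdkn1b probe set (1419497_at) was dimmer and ordered the groups otherwise. It read 1.87, 1.30 and 1.40 units in siControl, 1.10, 1.37 and 1.24 in siMyT1 and 0.984, 1.24 and 0.716 in siLSD1. Here the siLSD1 arrays were below siControl, with a log2 difference of -0.56 (adjusted p = 0.124), and the siMyT1 arrays overlapped it (-0.25, adjusted p = 0.605). No Cdkn1b probe set was called against siControl in either knockdown. Between the knockdowns the brightest was lower in siMyT1 with no overlap of arrays, and was not called (log2 difference -0.39, adjusted p = 0.0797, limma). It was called there in 7 of 17 alternatives, with differences from -0.52 to -0.04 over all of them. The second probe set went the other way (0.31, adjusted p = 0.368) and its arrays overlapped.

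Cdkn1a, the CIP/KIP inhibitor induced by p53, was not called in any comparison. Its brightest probe set (1424638_at) read 9.07, 9.09 and 9.30 units in siControl, 8.87, 10.8 and 9.31 in siMyT1 and 10.6, 8.21 and 8.97 in siLSD1. The groups overlapped in every pair, and the SD was 0.13 in siControl, 1.0 in siMyT1 and 1.2 in siLSD1. The log2 differences from siControl were 0.07 after siMyT1 (95% interval -0.14 to 0.28) and 0.01 after siLSD1 (-0.20 to 0.22), with adjusted p of 0.821 and 0.984. The other probe set (1421679_a_at) differed by 0.02 after siMyT1 and by -0.13 after siLSD1 (adjusted p = 0.523). Its siLSD1 arrays read 6.22, 5.77 and 5.73 units, all below the siControl arrays at 6.75, 6.46 and 6.25.

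Set against Cdk4 on the same array, the 5 genes called after siLSD1 lay apart from siControl on the siLSD1 arrays. This scale is the log2 level of a gene minus that of Cdk4 with the siControl mean at 0. A shift of a whole array cancels on it. The scale was chosen after the values were seen and the 5 genes were called on the same arrays, so it is not a separate test. On the siLSD1 arrays Ccnd1 stood at 0.70, 0.80 and 0.67, and on the siControl arrays between -0.01 and 0.03. Ccnd3 stood at 0.49, 0.60 and 0.56. Ccne1 stood at -0.71, -0.85 and -0.67, Ccne2 at -0.73, -0.64 and -0.81 and Cdkn2c at -0.95, -0.91 and -0.86. On the siMyT1 arrays Ccnd1 was at -0.01, 0.08 and 0.03, close to control on this scale. Cdkn2c was there at -0.33, -0.21 and -0.38 (siControl -0.12, 0.17 and -0.05). Ccne2 was at -0.15, -0.16 and -0.32 (siControl -0.11, 0.24 and -0.13), so both lay below all siControl arrays. Ccne1 was at -0.505, -0.202 and -0.518 and Ccnd3 at 0.21, 0.39 and -0.23, and both overlapped siControl. Cdk4 itself differed from siControl by 0.12 after siMyT1 and was not called. Cdkn1b was at -0.68, -0.40 and -0.81 on the siMyT1 arrays, with siControl at -0.16, 0.39 and -0.23. A ratio within an array shows unequal change of a gene and Cdk4 and does not show which of them changed.

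**Figure D3:**
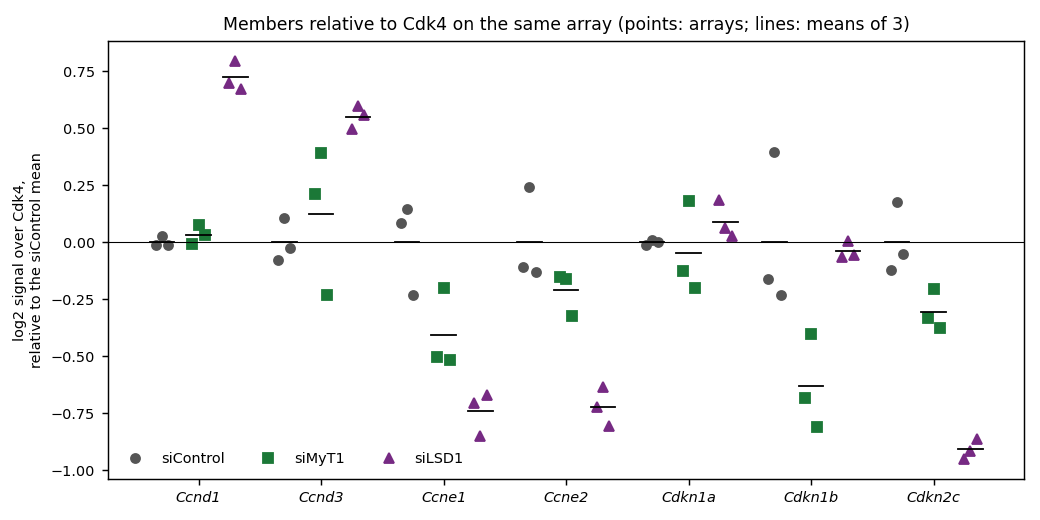
Log2 level of 7 genes minus that of Cdk4 on the same array, with the siControl mean at 0 (vertical axis). Points are arrays and lines are means of 3. On the siLSD1 arrays Ccnd1 and Ccnd3 lie above 0 and Ccne1, Ccne2 and Cdkn2c below, with no overlap with the siControl arrays.

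The genes whose profile of differences from siControl lay nearest to a member were found by Euclidean distance over the siMyT1 and siLSD1 differences, among 9314 genes with a mean above 1 unit. For Cdkn2c they were Shox2, Galnt1 and Naa40, at distances of 0.0889, 0.0964 and 0.118. For Ccnd1 they were Neo1, Abca1 and Comtd1, at 0.00597, 0.025 and 0.0313. For Ccne2 they were Gas1, Gmcl1 and Gdap2, at 0.0149, 0.0198 and 0.0305. Gas1, a membrane protein named for its expression in growth-arrested cells, differed by -0.10 after siMyT1 and -0.81 after siLSD1, beside -0.09 and -0.80 for Ccne2. These are likenesses in 2 differences from shared control arrays.

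The pocket proteins, which hold E2F factors until the G1 kinases phosphorylate them, the E2Fs and their partners were listed together. Of 13 pocket protein and E2F factor genes, 7 fell after siLSD1, 6 were not called and 0 rose, with a median log2 difference of -0.28 beside -0.03 for all genes, of which 3.95% fell. E2f2, an activator E2F, went from 7.32 ± 0.84 to 1.93 ± 0.25 units (SD, n = 3), a log2 difference of -1.82 (adjusted p = 4.00e-06). E2f7, a repressor that is itself E2F-induced, fell by 1.01 (adjusted p = 7.19e-05). Tfdp2, a dimerization partner of E2Fs, fell by 0.70 (adjusted p = 0.000476), and E2f6, a repressor, fell by 0.89 (adjusted p = 0.000157). E2f8, Rbl1 and Tfdp1 were the other 3 that fell, while E2f1 (-0.07, adjusted p = 0.772), E2f3 (-0.28, adjusted p = 0.0716), E2f4 (0.10, adjusted p = 0.751) and E2f5 (-0.16, adjusted p = 0.612) were not called. The pocket protein genes Rb1 (-0.27, adjusted p = 0.127) and Rbl2 (-0.17, adjusted p = 0.408) were not called either. The genes from E2f8 to Rbl2 were named after their values were seen. The E2f6 call was lost with probe sets averaged (-0.37, adjusted p = 0.0907). After siMyT1, 3 of the 13 fell and 1 rose, at a median of 0.01, beside 1.56% and 3.57% of all genes. E2f2 was lower by 0.49 on the log2 scale (adjusted p = 0.0279) and E2f7 by 0.42 (adjusted p = 0.0342). E2f8 (-0.59, adjusted p = 0.0302) was the other gene that fell, and Rbl2 (0.46, adjusted p = 0.0209) was the 1 that rose. The siMyT1 count of 4 went to between 0 and 2 on leaving out any 1 siControl or siMyT1 array, 0 with no intensity trend and 2 with probe sets averaged.

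Of the E2F target genes of the G1/S step, mostly replication genes, 22 of 23 were measured. After siLSD1, 12 of the 22 fell, 10 were not called and 0 rose, at a median of -0.37, beside 3.95% lower of all genes. Cdc45, which helps to unwind DNA at the fork, was lower by a log2 difference of -0.89 (adjusted p = 8.53e-05). Rrm2, a ribonucleotide reductase subunit, fell by 0.63 (adjusted p = 0.000236) and Mcm4, a helicase subunit, by 0.60 (adjusted p = 0.000222). Cdc6, a loader of the helicase, fell by 0.65 (adjusted p = 0.00281). Mcm2 (-0.14, adjusted p = 0.474) and Mcm6 (-0.01, adjusted p = 0.96), helicase subunits named after their values were seen, were among the 10 not called. With no intensity trend in the variance the count was 6. After siMyT1 the median was 0.01, and 5 of the 22 had an unadjusted limma p under 0.05, beside 20.3% of all genes. With adjustment 0 of the 22 were called, beside 5.13% of all genes. The count of called genes was 1 to 3 in 6 alternatives that kept all arrays, and 1 without siMyT1 replicate 1, all of them higher. In siMyT1 against siLSD1, 16 of the 22 were higher and 0 lower, beside 11.3% and 4.77% of all genes, but the count was 8 with each array centred on its median, 10 with no intensity trend and 10 without siMyT1 replicate 3.

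Of 12 kinase and inhibitor genes other than the 10, 6 were higher in siMyT1 than in siLSD1 and 0 lower, beside 11.3% and 4.77% of all genes. Cdc25a, the phosphatase that activates Cdk2, fell by 0.70 after siLSD1 (adjusted p = 0.00142) and was the 1 gene of the list called there (7.21% of all genes). After siMyT1, Cdk2 (log2 difference 0.34, adjusted p = 0.0158), Cks1b (0.33, adjusted p = 0.0165) and Cks2 (0.40, adjusted p = 0.0244), the last 2 being small kinase subunits, rose, 3 of 12 beside 3.57% of all genes. That count of 3 was 0 without siControl replicate 1 or siMyT1 replicate 3, 1 without siControl replicate 3 or siMyT1 replicate 2, 1 with median centring and 0 with no intensity trend. With probe sets averaged, Cdk2 stood at 0.17 (adjusted p = 0.443).

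Of 11 measured genes of cyclin and inhibitor turnover, 2 fell after siLSD1 and 0 rose, beside 3.95% and 3.26% of all genes. Skp2, the F-box protein that targets the Cdkn1b protein, went from 9.97 ± 0.40 to 6.14 ± 0.63 units (log2 difference -0.69, adjusted p = 0.00048). Fbxw7, the F-box protein that targets cyclin E, went from 4.46 ± 0.43 to 2.64 ± 0.14 units (-0.71, adjusted p = 0.000479). After siMyT1 Usp2, a deubiquitinase of cyclin D1, was the 1 gene of 11 called (5.13% of all genes), from 0.179 ± 0.16 to 0.661 ± 0.14 units (log2 difference 1.25, adjusted p = 0.0458). It was not called without siControl replicate 1 (adjusted p = 0.18) or 3 (0.162) or without any 1 siMyT1 array (0.0615 to 0.163). Its difference was 2.14 with a pseudocount of 1 (adjusted p = 0.0652), and it was called in 8 of 17 alternatives. Fbxo31, an F-box protein for cyclin D1, was lower in siMyT1 than in siLSD1 (-0.39, adjusted p = 0.00497) and was called against siControl after neither.

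Of 20 genes that feed into G1 cyclin transcription, 3 rose and 1 fell after siLSD1, beside 3.26% and 3.95% of all genes. Mycn, the neuroblastoma oncogene and a factor that binds E-boxes, went from 4.49 ± 0.48 to 8.44 ± 0.42 units (SD, n = 3), a log2 difference of 0.89 (adjusted p = 0.000151). With probe sets averaged it was 0.40 and not called (adjusted p = 0.243). Egr1, an immediate early factor, went from 8.37 ± 1.3 to 1.56 ± 0.075 units (log2 difference -2.27, adjusted p = 3.08e-05). Jun, an AP-1 subunit, rose by 0.39 (adjusted p = 0.0215), and this call was lost without siControl replicate 3 (0.0795) and without siLSD1 replicate 1 (0.0855) or 3 (0.0562) and with no intensity trend (0.0925). Without siLSD1 replicate 3 the list count was 1 higher and 1 lower. After siMyT1 Tcf7l2, a Wnt pathway factor, was the 1 gene of 20 called (0.72, adjusted p = 0.009), beside 5.13% of all genes, and it was not called without siControl replicate 1 (0.0514).

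In the list of p53 pathway genes and Cdkn1a regulators, 12 of 14 were measured, and Cdkn1a itself was called in neither knockdown. After siMyT1, 2 rose and 0 fell, beside 3.57% and 1.56% of all genes. Gadd45a, a stress-induced p53 target, went from 5.53 ± 0.41 to 11.8 ± 0.43 units (log2 difference 1.06, adjusted p = 2.41e-05). Klf4, a factor that can activate Cdkn1a, went from 8.31 ± 1.0 to 13.4 ± 0.82 units (0.68, adjusted p = 0.00139). After siLSD1 Klf4 fell, to 5.46 ± 0.24 units (-0.58, adjusted p = 0.00228), and Klf4 differed between the knockdowns by 1.27 (adjusted p = 7.03e-06). Also after siLSD1, Zmat3, a p53 target that binds RNA, fell by 0.66 (adjusted p = 0.000391) and Phlda3, an inhibitor of Akt, rose by 0.68 (adjusted p = 0.000219). In that comparison 3 of the 12 fell and 1 rose, at a median of -0.20, beside 3.95% and 3.26% of all genes.

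**Figure D4:**
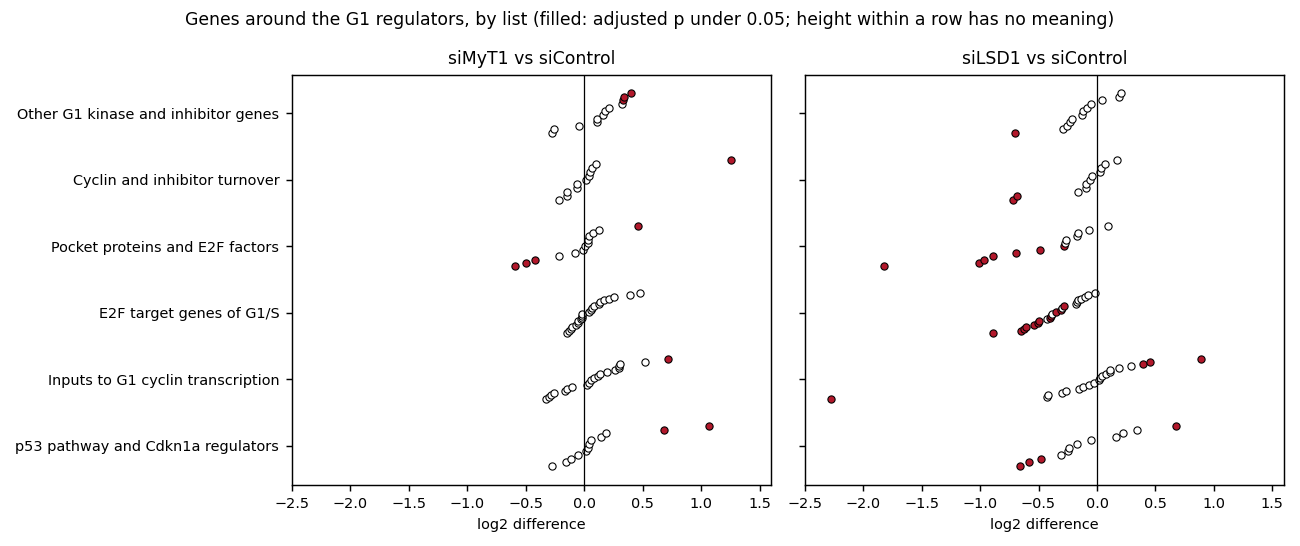
Log2 differences from siControl (horizontal axes) of single genes in 6 lists around the G1 regulators, after siMyT1 and after siLSD1. Filled points passed the test at an adjusted p under 0.05, and height within a row carries no value. In the rows of E2F factors and E2F targets 7 and 12 points are filled for siLSD1, all below 0.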

How the data were processed

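Per the labels, total RNA from Neuro2a cells was column-purified and biotin-labelled for 1-colour arrays. The authors deposited linear intensity values for 45101 probe sets. How these were summarised and scaled is not stated in those sources, so the meaning of 1 unit is unknown. The 64 control probe sets were left out, which left 45037, of which 34945 carried 1 gene symbol, 932 several and 9160 none here. Entrez identifiers of 34741 matched the RefSeq table of GRCm38.p6.

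The deposited intensity values were multiplied by 163.6, which sets the 2% trimmed mean to 500, and analysed as log2(value + 32), a pseudocount of 0.196 deposited units. Log2 differences therefore understate changes of dim probe sets. All 9 arrays and all 45037 probe sets were fitted together with limma 3.58.1 in R 4.3.3 (group means, intensity trend, 6 residual and 6.07 prior degrees of freedom, two-sided, Benjamini-Hochberg). A gene was read by its brightest probe set. The scripts were tested on simulated arrays.

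The 10 genes and the lists were chosen with earlier results of these data known. The genes named by rule are these 10, the siRNA targets, up to 4 genes per list with the smallest F-test p among those called, and the 3 nearest profiles of the 3 members with the smallest F-test p. Further genes of the E2F factor, E2F target and cell type marker lists were named after their values were seen. Levels of different probe sets are not comparable, and the number of arrays limits the precision. Same-numbered replicates of different groups deviated together at correlations between -0.039 and 0.0434, with 0 of 9 pairs over 0.1, so the numbers were not taken to pair samples. Alternatives covered normalization, pseudocount, filter, probe set choice, variance model, replicate block and leaving out each array.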

Additional observations from a re-analysis of the deposited data

How the results depend on the processing

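The siLSD1 calls of Ccnd1, Ccne1, Ccne2 and Cdkn2c by the brightest probe set held in all 17 alternatives, and Ccnd3 in 11 of them. With the Ccnd3 probe sets averaged its siLSD1 difference turned to -0.046. The siMyT1 count of 0 became 2 with quantile normalization (Cdkn1b and Ccne1) and 1, Cdkn1b, with each of median centring, a pseudocount of 1, dim probe sets left out, only the brightest probe set of each gene fitted, probe sets averaged and a robust variance model. Leaving out 1 array gave 0 genes for siMyT1, 4 to 5 for siLSD1, 3 to 4 between the knockdowns and 4 to 6 by the F-test. With the replicate block the counts were 0, 5, 4 and 5. For siLSD1 against siControl the block ended the calls of Ccnd1 1417419_at (adjusted p = 0.0626), Ccnd3 1444323_at (0.0611) and Jun (0.0512). For siMyT1 against siControl it ended those of Cdk2 (0.052), Cks2 (0.0642), Usp2 (0.085) and E2f7 (0.0563), and between the knockdowns those of Ccnd1 1417419_at (0.0699) and Tcf7l2 (0.0686). Of 1245 values for single probe sets, 1194 stayed on their side of the threshold in the same direction, where 56 sign turns of values called neither way count as kept. Of 306 list counts, 251 stayed within 1.5 times. Over all probe sets the share of higher calls was 66.7% after siMyT1 (52.8% with quantile normalization, 54.0% with centring) and 44.7% after siLSD1 (50.8% and 65.2%). Between the knockdowns it was 67.8% (51.7% and 38.3%), where centring moved the median of all probe sets from 0.072 to -0.057. The cause of these changes was not tested. Low signal limits what can be measured for Ccnd2, whose brightest probe set lay near the array median and the other 6 below it, and for Cdk6, whose 3 lay below it.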
